A study of Mus musculus with 24 samples.

Results

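Genes that export cholesterol from cells and store lipid inside them were followed in C2C12 cells, a line of mouse myoblasts, on 24 Affymetrix mouse arrays. The set comprised 10 genes of the 12393 measured: Apoe, Abca1, Abcg1, Nr1h3, Lpl, Angptl4, Plin2, Pparg, Cebpa and Cebpb. Every probe set that the array annotation assigned to a single gene with one of these symbols was included, which gave 15 probe sets. Apoe and Abca1 were selected on their measured signal, which was much higher in suspended cells, so their changes into and out of suspension are given below as values with no test. All cells had received an siRNA, either against IFT88 (IFT88KD), an intraflagellar transport protein needed to build primary cilia, or a negative control (control), and the series asks how IFT88 siRNA bears on myoblasts in different states of the cell cycle.

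Each siRNA was followed in 4 states with 3 arrays in each of the 8 groups. Proliferating cells (MB) grew attached in DMEM with 20% FBS. Quiescent cells (G0) were kept in suspension in the same medium. Reactivated cells (R2) had been put back on a surface after suspension, also in 20% FBS, and were harvested 2 h later. Differentiating cells (D48) were attached and had spent 48 h in DMEM with 2% NHS (horse serum). C2C12 is a single immortal line, no group was free of siRNA, and the labels do not say whether replicates were separate cultures, so p-values measure only the spread between these arrays, which may be technical.

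Values are log2 signals as deposited, and a level of one probe set cannot be ranked against that of another. The median signal of an array was 3.58 to 3.62 log2 in MB, 3.79 to 3.85 in G0, 2.92 to 2.98 in R2 and 3.68 to 3.78 in D48. This difference in scale runs along the states, so for changes between states the median change of all 8597 genes tested and the change after quantile normalisation stand beside the members. Ift88, the targeted gene, changed by -0.69 log2 (SE 0.16, adjusted p = 0.0113) in G0, and its IFT88KD arrays lay below the control arrays in MB, G0 and R2 but not in D48. In MB and R2 its adjusted p was 0.295 and 0.0535, and 0.0429 and 0.00802 with the replicate number as a block. Of 8 myoblast markers, 6 (Myod1, Myf5, Des, Cdh15, Itga7 and Vcam1) were above the 40th percentile of every array, and Pax7 and Msc were not. The number of arrays limits the precision.

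As background, cells cannot break down the sterol ring, and surplus cholesterol leaves through the ATP-binding cassette transporters ABCA1 and ABCG1 onto apolipoproteins such as APOE. Their genes are targets of the liver X receptors, nuclear receptors that bind oxysterols, of which Nr1h3 encodes LXRα. Lipoprotein lipase (Lpl) frees fatty acids from lipoproteins, ANGPTL4 inhibits it, and the fatty acids that enter a cell can be stored in lipid droplets coated by perilipins such as PLIN2. PPARγ (Pparg), C/EBPα (Cebpa) and C/EBPβ (Cebpb) form the transcription factor cascade of fat cell differentiation, which myoblasts do not normally enter.

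Promoter sequence is shown for Apoe and Abca1, which had the largest differences between states among the 10 genes, and for Cebpb, whose signal was highest after replating. Each run covers 250 bases before to 50 bases after a RefSeq transcription start in GRCm38.p6, 5′ to 3′ on the gene's strand. Capitals mark matches, on either strand, to the motifs described after the sequences.
Apoe chr7:19699139-19699438 (-): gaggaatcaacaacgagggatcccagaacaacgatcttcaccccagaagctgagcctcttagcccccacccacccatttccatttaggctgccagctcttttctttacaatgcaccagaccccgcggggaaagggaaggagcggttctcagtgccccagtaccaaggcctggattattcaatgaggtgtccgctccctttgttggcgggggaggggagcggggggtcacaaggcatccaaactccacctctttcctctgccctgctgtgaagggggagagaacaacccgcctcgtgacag
Abca1 chr4:53159846-53160145 (-): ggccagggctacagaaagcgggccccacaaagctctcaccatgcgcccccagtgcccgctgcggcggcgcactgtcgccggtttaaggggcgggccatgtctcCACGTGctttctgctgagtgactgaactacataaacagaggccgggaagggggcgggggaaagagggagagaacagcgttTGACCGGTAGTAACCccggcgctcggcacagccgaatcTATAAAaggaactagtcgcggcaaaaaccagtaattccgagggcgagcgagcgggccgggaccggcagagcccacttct
Cebpb chr2:167688665-167688964 (+): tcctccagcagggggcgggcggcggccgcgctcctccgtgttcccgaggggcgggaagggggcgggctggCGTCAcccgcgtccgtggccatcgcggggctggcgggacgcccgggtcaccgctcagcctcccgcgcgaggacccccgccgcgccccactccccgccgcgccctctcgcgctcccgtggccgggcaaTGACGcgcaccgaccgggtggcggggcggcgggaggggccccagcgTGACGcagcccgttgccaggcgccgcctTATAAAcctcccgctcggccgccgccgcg

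The motifs were GGTTA followed by 5 bases of any kind and GGTCA, a form of the repeated element that LXR binds with its partner RXR, CACGTG, the E-box bound by SREBP and other factors, TGACG, the core of the cAMP response element, and TATAAA, the TATA box. RefSeq promoters were found for 7 of the 10 genes, 12 promoters in all. The LXR-type letters occurred in 16 of 32817 promoters of the same length (0.0488%), and among the members in Abca1 alone, on the minus strand of the window between 67 and 53 bases before the start. Other spellings of the element were not searched, so this share and the lack of a match elsewhere hold for these letters alone. Abca1 also held CACGTG at 147 to 142 bases before the start, where 7.15% of promoters hold these letters, and TATAAA at 29 to 24 bases before it, as 13.6% do. The Cebpb window held TGACG at 3 places, 180 to 176, 53 to 49 and 7 to 3 bases before the start, and 20.8% of all promoters held it at least once. It also held TATAAA, at 22 to 27 bases after the start. None of the motifs overlapped another in these windows. The Apoe window shown belongs to the most upstream of the 3 Apoe starts in the RefSeq promoter table and held none of these letters, while the window of another Apoe start held TATAAA. The RefSeq genes of Apoe and Abca1 reach further upstream than the starts shown. A match describes the letters and was not tested as a binding site.

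Apoe and Abca1, the carrier and the transporter of exported cholesterol, had a signal well above the 40th percentile of the arrays only in suspended and replated cells. For Apoe, the control arrays read 1.57, 1.59 and 1.65 log2 in MB, 8.52, 9.12 and 9.14 in G0, 7.63, 8.01 and 8.48 in R2, and 1.47, 1.48 and 1.67 in D48. The IFT88KD arrays read 1.31, 1.74 and 1.79 in MB, 8.41, 8.44 and 8.63 in G0, 7.50, 7.53 and 8.20 in R2, and 1.32, 1.32 and 1.68 in D48. All 12 arrays of G0 and R2 were therefore high and all 12 of MB and D48 low, with no overlap under either siRNA. The order of group means ran from 8.93 in control G0 through 8.49 in IFT88KD G0 and 8.04 in control R2 to 7.74 in IFT88KD R2, and each of these neighbours overlapped the next.

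Abca1, measured by its brightest probe set, followed a similar order with a larger step at replating. Control arrays read 1.16, 1.26 and 1.29 log2 in MB, 7.99, 8.14 and 8.27 in G0, 6.10, 6.17 and 6.53 in R2, and 1.92, 1.97 and 2.01 in D48. With IFT88 siRNA they read 1.24, 1.25 and 1.33 in MB, 8.20, 8.54 and 8.59 in G0, 6.34, 6.64 and 6.75 in R2, and 1.64, 1.80 and 1.89 in D48. The R2 arrays thus lay below every G0 array and far above every MB and D48 array, and the siRNA groups overlapped within G0 and within R2. A pair of other Abca1 probe sets stayed between 0.66 and 2.06 log2, below the 40th percentile of all 24 arrays. One of them differed by 0.61 log2 and the other by 0.06 between control G0 and MB, so the large difference rests on a single probe set.

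Between control MB and control G0 the difference was 7.32 log2 for Apoe and 6.90 for Abca1 (7.17 and 6.80 after quantile normalisation), against a median of 0.14 for all genes tested (0.04 after quantile normalisation). Since the MB signals lay below the 40th percentile, these differences set a clear signal against one that cannot be told apart from background. Averaging the probe sets of Abca1 gave 2.52 in place of 6.90. From control G0 to control R2 the difference was -0.89 for Apoe and -1.87 for Abca1, where the median of all genes was -0.61. After quantile normalisation these values were -0.54 and -1.49 against a median of -0.10, so Abca1 lay further below the bulk of genes than Apoe did. The IFT88KD cells gave 6.88 and 7.17 for the same G0 minus MB differences, and -0.75 and -1.86 for R2 minus G0.

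**Figure D1:**
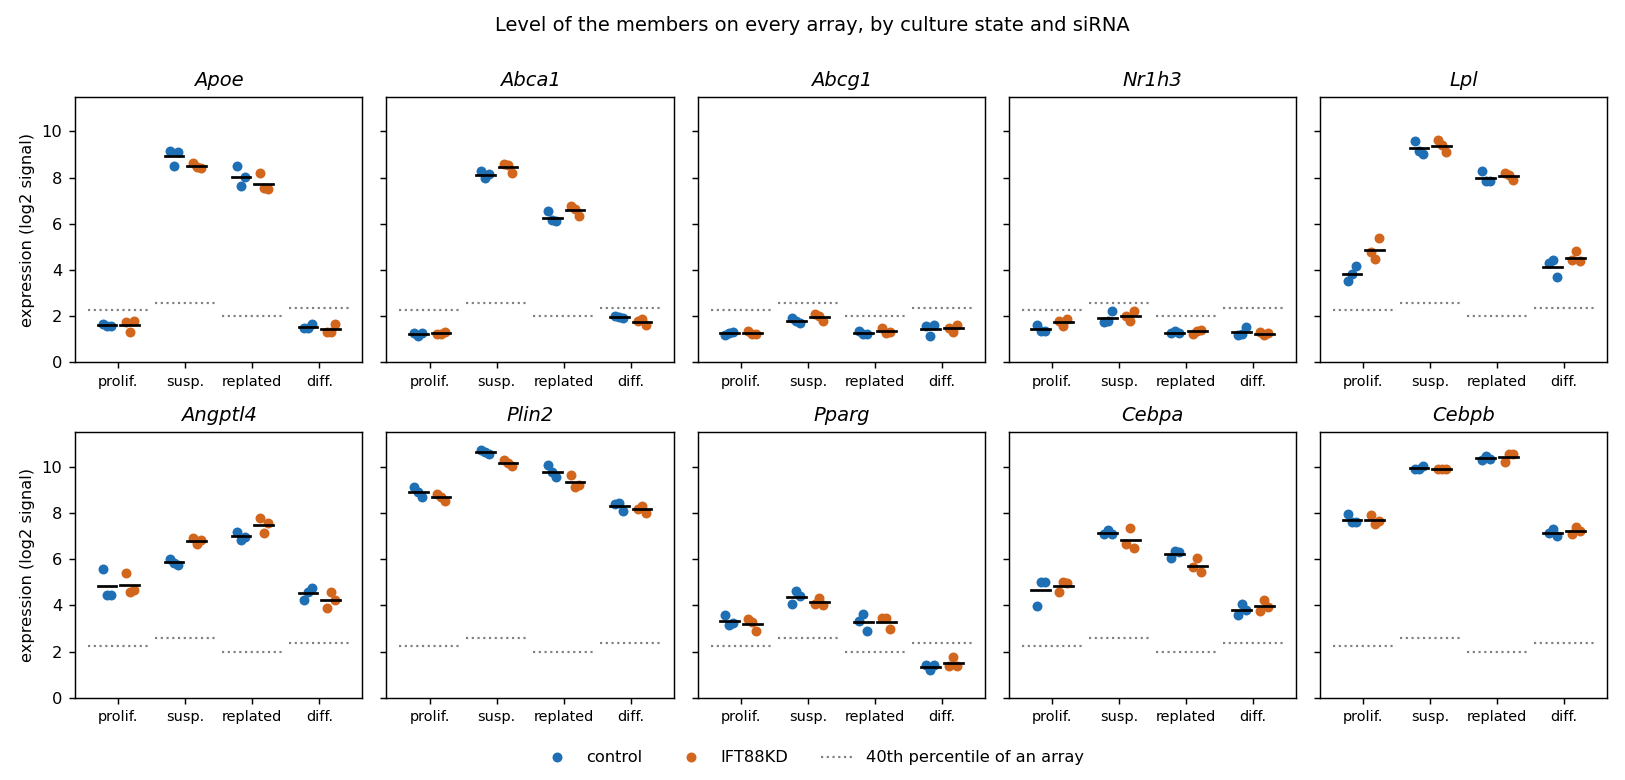
Log2 signal of the 10 genes on every array, by culture state (x axis) and siRNA (colour), with bars at the group means and dotted lines at the highest 40th percentile among the control arrays of a state. Apoe and Abca1 are high on the 12 suspended and replated arrays and below the dotted line elsewhere, while Abcg1 and Nr1h3 lie below it everywhere.

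Attached control cells after 48 h of differentiation were compared with proliferating ones, as the other state in which myoblasts leave the cell cycle. Apoe did not pass the test (-0.07 log2, SE 0.20, adjusted p = 0.803), with overlapping arrays. The Abca1 value was 0.73 log2 (SE 0.13, adjusted p = 4.68e-05), with all D48 arrays above all MB arrays, although every one of these 6 signals lay below the 40th percentile of its array. Both genes passed the filter on low signal only through G0 and R2, so these values set background against background. Of the other 6 members tested, 0 were higher in D48 and 4 lower (Plin2, Pparg, Cebpa and Cebpb), where 54.8% of all genes passed, 24.5% higher and 30.3% lower. The second Cebpb probe set did not pass here (-0.36, SE 0.18, adjusted p = 0.098).

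Abcg1, the transporter that loads cholesterol onto mature high-density lipoprotein, ranged from 1.13 to 2.10 log2 over the 24 arrays and was never above the 40th percentile, so it was not tested. Its arrays read 1.70, 1.79 and 1.92 in control G0 and 1.81, 2.01 and 2.10 in IFT88KD G0, above the 1.19, 1.29 and 1.30 of control MB. Nr1h3, the receptor gene, ranged from 1.17 to 2.21 and was not tested for the same reason. Its control arrays read 1.35, 1.38 and 1.62 in MB and 1.77, 1.81 and 2.21 in G0. The highest group means of both genes were those of G0, yet at such signals expression cannot be told apart from the background of the array.

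Lpl, the lipase, was above the 40th percentile on all 24 arrays and had its highest levels in suspension. Control arrays read 3.51, 3.83 and 4.19 log2 in MB, 9.03, 9.16 and 9.59 in G0, 7.83, 7.84 and 8.29 in R2, and 3.68, 4.32 and 4.45 in D48. IFT88KD arrays read 4.49, 4.77 and 5.37 in MB, 9.10, 9.42 and 9.61 in G0, 7.90, 8.13 and 8.20 in R2, and 4.37, 4.41 and 4.80 in D48. Each state separated cleanly from the next in the order G0, R2 and then the attached states, and only in MB did the arrays of the siRNA groups not overlap. In control cells Lpl rose by 5.41 log2 from MB to G0 (SE 0.23, adjusted p = 8.79e-15), a 42.6-fold difference, and its other probe set rose by 5.91 (SE 0.22). It fell by 1.27 log2 from G0 to R2 (SE 0.23, adjusted p = 4.46e-05), or 0.92 after quantile normalisation (adjusted p = 0.00117). Between MB and D48 its difference was 0.31 (SE 0.23, adjusted p = 0.277).

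Angptl4, which encodes the inhibitor of lipoprotein lipase, did not fall back after replating as Lpl did. Control arrays read 4.43, 4.47 and 5.56 log2 in MB, 5.74, 5.84 and 6.0 in G0, 6.82, 6.95 and 7.17 in R2, and 4.22, 4.60 and 4.73 in D48. With IFT88 siRNA the values were 4.57, 4.68 and 5.42 in MB, 6.66, 6.85 and 6.90 in G0, 7.14, 7.55 and 7.78 in R2, and 3.87, 4.25 and 4.60 in D48. The R2 arrays of control cells were above all control G0 arrays, which in turn were above all control MB arrays. Angptl4 rose by 1.04 log2 from MB to G0 (SE 0.26, adjusted p = 0.0012) and by a further 1.12 from G0 to R2 (SE 0.26, adjusted p = 0.000526), the latter against a median of -0.61 for all genes. A second, dimmer probe set rose by 1.05 from MB to G0 (SE 0.30, adjusted p = 0.00458) but differed by only -0.26 from G0 to R2 (adjusted p = 0.459), and with the mean of both probe sets the replating value was 0.43 (adjusted p = 0.0804). Between MB and D48 Angptl4 differed by -0.30 (adjusted p = 0.334).

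Plin2, the lipid droplet coat gene, was high on every array and highest in suspended control cells. Control arrays read 8.68, 8.90 and 9.13 log2 in MB, 10.56, 10.63 and 10.72 in G0, 9.55, 9.75 and 10.06 in R2, and 8.09, 8.37 and 8.42 in D48. With IFT88 siRNA they read 8.51, 8.70 and 8.84, then 10.04, 10.17 and 10.30, then 9.12, 9.20 and 9.65, and finally 8.00, 8.19 and 8.29 in the same order of states. Only in G0 did all IFT88KD arrays lie below all control arrays. In control cells Plin2 rose by 1.74 log2 from MB to G0 (SE 0.15, adjusted p = 1.47e-09), fell by 0.86 from G0 to R2 (SE 0.15, adjusted p = 3.16e-05) and was lower in D48 than in MB by 0.61 (SE 0.15, adjusted p = 0.00188). The replating value was -0.57 after quantile normalisation (adjusted p = 0.00217), and with each array centred on its median it was 0.0012 (adjusted p = 0.994), so this fall depends on how the states are scaled.

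The adipogenic factors Pparg and Cebpa were higher in suspension and lower in differentiation, each by a different amount. Pparg, the nuclear receptor of fat cell differentiation, read 3.15, 3.23 and 3.58 log2 in control MB, 4.08, 4.40 and 4.63 in G0, 2.88, 3.33 and 3.61 in R2, and 1.19, 1.41 and 1.43 in D48. Its IFT88KD arrays read 2.91, 3.29 and 3.40, then 4.02, 4.08 and 4.32, then 2.97, 3.44 and 3.44, and 1.37, 1.38 and 1.75. On the deposited values G0 arrays lay above all others, MB and R2 arrays overlapped, and all 6 D48 arrays were below the 40th percentile. This order depends on the scale of R2. After quantile normalisation the control means were 3.26 in MB, 4.10 in G0 and 3.83 in R2. Those of IFT88KD cells were 3.14, 3.86 and 3.84. Pparg rose by 1.05 log2 from MB to G0 (SE 0.19, adjusted p = 4.01e-05), or 0.84 after quantile normalisation, and fell by 1.98 from MB to D48 (SE 0.19, adjusted p = 1.82e-08). Its change from G0 to R2 was -1.10 (SE 0.19, adjusted p = 2.01e-05) on the deposited values but -0.27 after quantile normalisation (adjusted p = 0.198).

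Cebpa, which acts with Pparg late in the cascade, read 3.97, 5.03 and 5.03 log2 in control MB, 7.07, 7.08 and 7.25 in G0, 6.04, 6.33 and 6.35 in R2, and 3.59, 3.82 and 4.07 in D48. The IFT88KD arrays read 4.57, 4.98 and 4.99 in MB, 6.50, 6.67 and 7.36 in G0, 5.45, 5.64 and 6.03 in R2, and 3.76, 3.91 and 4.22 in D48. On the deposited values all G0 arrays were above all R2 arrays, and all R2 arrays were above those of the attached states. Cebpa rose by 2.46 log2 from MB to G0 (SE 0.25, adjusted p = 1.09e-08) and fell by 0.85 from MB to D48 (SE 0.25, adjusted p = 0.00563), where 1 low MB array made the groups overlap. From G0 to R2 it changed by -0.89 (SE 0.25, adjusted p = 0.00236), or -0.49 after quantile normalisation (adjusted p = 0.0762).

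Cebpb, the early factor of the cascade, was the member besides Angptl4 whose highest group means were those of replated cells. Control arrays read 7.60, 7.60 and 7.94 log2 in MB, 9.91, 9.92 and 10.01 in G0, 10.31, 10.33 and 10.46 in R2, and 6.99, 7.12 and 7.29 in D48. IFT88KD arrays read 7.50, 7.66 and 7.92, then 9.88, 9.89 and 9.91, then 10.20, 10.56 and 10.57, and 7.08, 7.22 and 7.38. The 4 states did not overlap in control cells. Cebpb rose by 2.24 log2 from MB to G0 (SE 0.12, adjusted p = 6.82e-13) and by 0.42 from G0 to R2 (SE 0.12, adjusted p = 0.00431), or 0.71 after quantile normalisation, and fell by 0.58 from MB to D48 (SE 0.12, adjusted p = 0.00048). A second probe set rose by 2.90 from MB to G0 (SE 0.18) and differed by 0.16 from G0 to R2 (adjusted p = 0.437). From MB to D48 it differed by -0.36 (SE 0.18, adjusted p = 0.098) and did not pass. With the mean of both probe sets the replating value was 0.29 (adjusted p = 0.0698).

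Counted over the 6 members tested for suspension, leaving out Apoe and Abca1, all 6 were higher in control G0 than in control MB, where 41.9% of all genes were higher and 71.3% passed in either direction. Their median change was 1.99 log2, against 0.14 for all genes tested. For replating, 2 of the 6 were higher and 4 lower, where 76.5% of all genes passed, 9.62% higher and 66.9% lower. After quantile normalisation 2 were higher and 2 lower, against 27.2% and 37.1% of all genes. Apoe and Abca1 passed the filter on low signal only through G0 and R2, so they had to differ between states and are left out of these counts. Muscle markers moved along the same comparison. Of 6 myoblast markers tested, 4 were lower in control G0 than in MB and 1 higher (median -0.93 log2), among them Cdh15 (-2.43) and Myod1 (-1.29) lower and Vcam1 (2.03) higher. Over all genes 29.5% were lower and 41.9% higher. Of 6 myotube markers, 4 were higher and 0 lower (median 1.60), led by the embryonic myosin gene Myh3 (3.24). At replating 1 myoblast marker was higher and 3 lower, and 0 myotube markers were higher and 3 lower. In D48 all 6 myotube markers were higher than in MB, with a median of 5.35, where 24.5% of all genes were higher. The part of the muscle markers in the members' values was not tested.

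**Figure D2:**
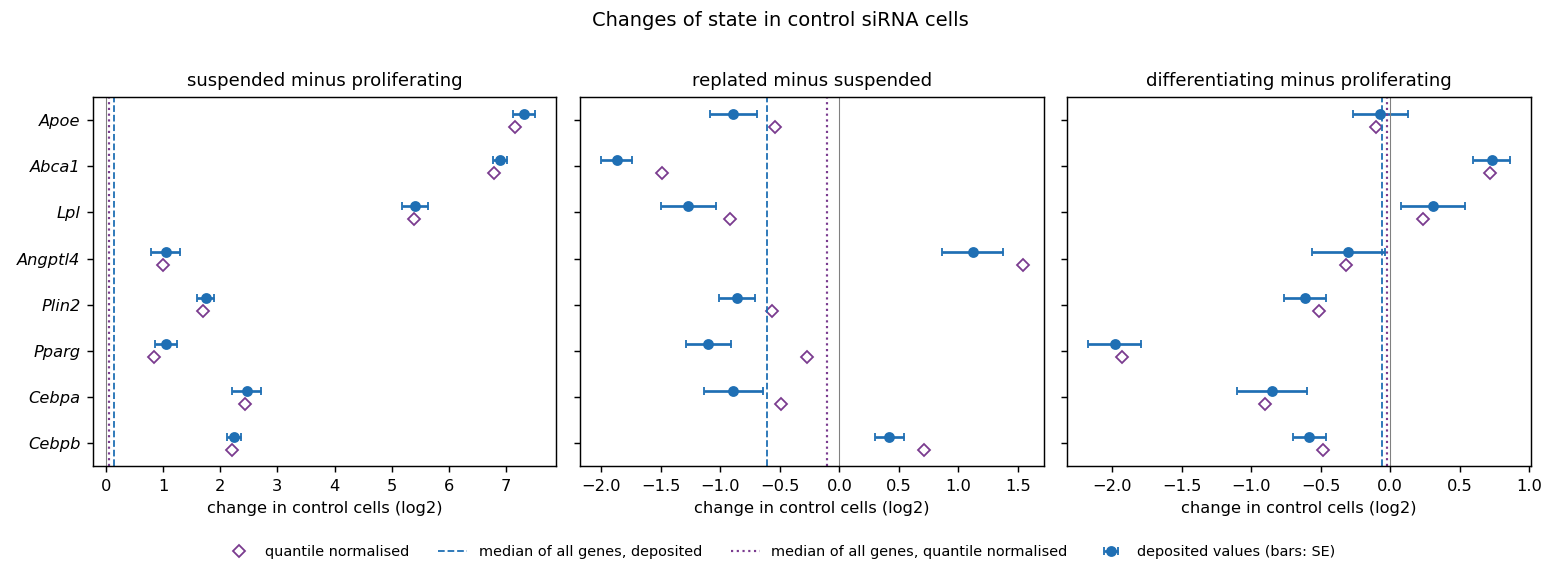
Change of each tested member in control cells for suspension, replating and differentiation (x axes, log2), with standard errors on the deposited values (filled circles) and the quantile-normalised value below it (open diamonds). Vertical lines give the median of all genes tested. Cebpb and Angptl4 lie to the right of 0 at replating while the other members lie to the left, and all 8 replating values lie further right once the arrays are quantile-normalised.

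IFT88 siRNA was then compared with control siRNA within each state, where the arrays share a scale. In G0, Angptl4 rose by 0.94 log2 (SE 0.26, adjusted p = 0.0337), a 1.92-fold difference, with all 3 IFT88KD arrays above all 3 control arrays. It was the 1 member of 8 that passed, where 5.20% of all genes passed and 2.88% were higher. Leaving out any of the 6 arrays of the comparison gave 0.88 to 1.02 log2 with adjusted p-values of 0.0593 to 0.118 and no member past the threshold. Angptl4's dimmer probe set gave 0.62 (SE 0.30, adjusted p = 0.36).

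Arrays of equal replicate number deviated together within a state, so a fit with the number as a block is set beside these values. With the block, Angptl4 in G0 had an adjusted p of 5.22e-05 and 3 more members passed there, for a total of 2 higher and 2 lower, where 13.6% of all genes passed. Plin2 differed by -0.47 log2 in G0 (SE 0.15), with an adjusted p of 0.0842 without and 0.000732 with the block, and no overlap of arrays. It also passed with array weights (adjusted p = 0.0179) and with the compared arrays alone (adjusted p = 0.0382). Apoe differed by -0.43 (SE 0.20, adjusted p = 0.296 without and 0.0257 with the block), lower in 3 of 3 pairs. Abca1 differed by 0.31 (SE 0.13, adjusted p = 0.198 without and 0.0361 with the block), higher in 3 of 3 pairs. Apoe and Abca1 passed only the fit that uses these same pairs, so the shared signs are not separate support. The other Abca1 probe sets, both below the 40th percentile, gave -0.28 and -0.07, and the mean of the Abca1 probe sets gave -0.01 (adjusted p = 0.968). The values of Apoe and Abca1 thus had opposite signs on the probe sets used, neither passed without the block, and each was a small fraction of the gene's difference between states.

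The remaining members did not pass in G0 under either fit. Lpl differed by 0.12 log2 (SE 0.23), Pparg by -0.23 (SE 0.19), Cebpa by -0.29 (SE 0.25) and Cebpb by -0.06 (SE 0.12), with adjusted p-values of 0.623 to 0.899. The Cebpb arrays did not overlap, with IFT88KD lower, since both groups were tight, and the difference was within its standard error. In all, arrays did not overlap for 1 higher and 2 lower members in G0, where 11.2% of all genes were higher and 13.7% lower without overlap.

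In R2 none of the 8 members passed without the block, where 2.41% of all genes did, and 3 had an unadjusted p under 0.05, as 14.3% of all genes had. With the block 2 were higher and 2 lower, where 11.1% of all genes passed. Plin2 differed by -0.46 log2 (SE 0.15, adjusted p = 0.128 without and 0.00144 with the block) and Cebpa by -0.54 (SE 0.25, adjusted p = 0.318 and 0.0337). For Cebpa the IFT88KD arrays lay barely below the control arrays, the highest at 6.03 against 6.04 for the lowest control array. Angptl4 differed by 0.51 (SE 0.26, adjusted p = 0.39 and 0.00758) and Abca1 by 0.31 (SE 0.13, adjusted p = 0.237 and 0.0407). For Plin2, Cebpa, Angptl4 and Abca1 the difference, on the probe sets used, had the same sign in 3 of 3 pairs. These genes passed the fit that uses the same pairs, so the shared signs are not separate support. Plin2 and Abca1 also passed with array weights (adjusted p = 0.0148 and 0.0382), and Plin2 without IFT88KD replicate 1 (-0.62, adjusted p = 0.0448). Apoe differed by -0.30 (SE 0.20), and did not pass under either fit (adjusted p = 0.567 and 0.124).

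In MB the member that moved most was Lpl, which was 1.03 log2 higher with IFT88 siRNA (SE 0.23), 2.04-fold, with all IFT88KD arrays above all control arrays. Its adjusted p was 0.0606 without the block and 0.000692 with it, so that 0 of 8 members passed without the block, where 0.361% of all genes did, and 1 passed with it, where 1.93% did. At an unadjusted p under 0.05 the count was 1 of 8, against 6.15% of all genes. The second Lpl probe set differed by 0.69 (SE 0.22, adjusted p = 0.456). Leaving out 1 of the 6 arrays gave 0.79 to 1.23 log2. Lpl passed without IFT88KD replicate 2 (adjusted p = 0.0299) and without control replicate 3 (adjusted p = 0.0359), and not without the others, where the adjusted p reached 0.444 without IFT88KD replicate 3. It passed with array weights (0.79, adjusted p = 0.0141) and not with the compared arrays alone (adjusted p = 0.683). Apoe (0.01) and Abca1 (0.04) were at the bottom of their range in both groups. Both lay below the level of the filter on low signal on every MB array, so a lower signal could not be seen. Leaving them out gave 0 of 6 members past the threshold without the block.

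In D48 the largest member values were 0.38 log2 for Lpl (SE 0.23) and -0.28 for Angptl4 (SE 0.26), both with an adjusted p of 0.999. No member passed with or without the block, and 0 had an unadjusted p under 0.05, where 0.14% of all genes passed without the block, 1.04% with it, and 4.71% had an unadjusted p under 0.05. Apoe, Abca1 and Pparg had no D48 array above the level of the filter on low signal. For these genes a lower signal with IFT88 siRNA could not be seen. Leaving out Apoe and Abca1 gave 0 of 6 members past the threshold without the block. Ift88 itself differed by -0.01 log2 in this state (SE 0.16, adjusted p = 0.999).

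**Figure D3:**
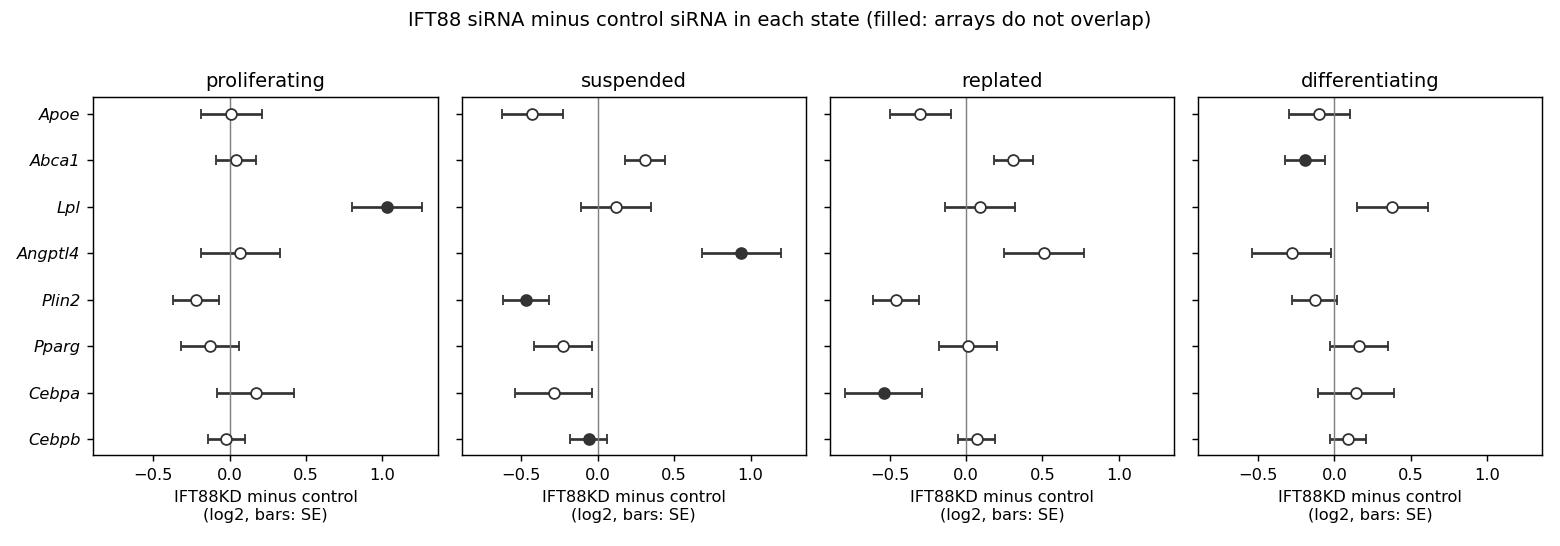
IFT88KD minus control for each tested member in each state (x axes, log2, bars give the standard error of 3 against 3 arrays), filled where the arrays of the siRNA groups do not overlap. Lpl stands out to the right in proliferating cells and Angptl4 in suspended cells, while Plin2 lies left of 0 in every state.

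Whether the siRNA effect differed between states was tested as a difference of differences. From MB to G0 the Lpl effect moved by -0.91 log2 (SE 0.33, adjusted p = 0.316, with the block 0.0114) and the Angptl4 effect by 0.87 (SE 0.37, adjusted p = 0.462, with the block 0.00409). No member passed without the block and 2 passed with it, where 1.24% and 3.84% of all genes did, and 2 members had an unadjusted p under 0.05, as 8.51% of all genes had. Between MB and G0 the Lpl difference was thus 4.50 log2 in IFT88KD cells and 5.41 in control cells, and that of Angptl4 was 1.91 and 1.04. Between G0 and R2 and between MB and D48, 0 members passed and 0 had an unadjusted p under 0.05, where 0.0582% and 0.0465% of all genes passed and 3.12% and 3.56% had an unadjusted p under 0.05. Apoe and Abca1 lay below the level of the filter on low signal in both MB and D48. Without them 0 of 6 members passed between these states. The interval from G0 to R2 gave an Abca1 effect difference of 0.00 (SE 0.18) and a Plin2 effect difference of 0.01 (SE 0.22).

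Other genes of these pathways were counted from 9 lists with the 10 members left out, to be read against the 41.9% higher, the 29.5% lower and the median of 0.14 log2 over all genes between control MB and G0 (37.3% higher and 33.2% lower after quantile normalisation, median 0.04). The lists were chosen with results of these arrays known, so their directions are descriptions. A gene with no array above the 40th percentile in one of the groups had to differ if its signal was clear in the other, so each count is also given without such genes, an alternative added after the data were seen. Over all genes with signal in both groups, 40.3% were higher and 30.5% lower, and the median was 0.11. Of 16 further genes of cholesterol export and LXR targets tested, 10 were higher in control G0 than in MB and 0 lower, with a median change of 0.74 log2 (10 and 0 after quantile normalisation, median 0.65). Of the 13 with signal in both groups, 8 were higher and 0 lower, with a median of 0.75. Apoc1, an apolipoprotein gene beside Apoe in the genome, rose by 4.95 (SE 0.17) from a signal at background (1.29 in MB), Smpdl3a by 2.46 (SE 0.19) and the desaturase Scd1 by 1.67 (SE 0.13). At replating 1 rose and 13 fell, where 9.62% of all genes rose and 66.9% fell. After quantile normalisation the counts were 2 and 9, against 27.2% and 37.1% of all genes. Of 14 with signal in both groups, 0 rose and 12 fell, with a median of -0.85 against -0.62 over all genes with signal in both. Ch25h, which makes an oxysterol, rose by 1.67 (SE 0.19) between G0 and R2 and had no control G0 array above the 40th percentile. In D48, 9 of 16 were higher than in MB and 0 lower, where 24.5% of all genes were higher and 30.3% lower. With signal in both groups the count was 7 of 13, with a median of 0.34 against -0.08 over all genes with signal in both.

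Sterol synthesis genes lay on the other side. Of 19 tested, 18 were lower in control G0 than in MB and 0 higher, with a median of -2.12 log2 (19 of 19 and -2.17 after quantile normalisation). Of 18 with signal in both groups 17 were lower. Idi1 (-4.89, SE 0.11) and Fdps (-4.74, SE 0.17), enzymes of the mevalonate pathway, fell furthest. In D48 2 of these 19 were lower than in MB and 3 higher, where 30.3% of all genes were lower and 24.5% higher.

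Among genes that bring lipoproteins in, 5 of 10 tested were higher in G0 and 1 lower, with a median of 0.67 log2 (5 and 1 after quantile normalisation, median 0.54). Vldlr and Cd36 had no MB array above the 40th percentile, and of the 6 genes with signal in both groups 3 were higher and 1 lower. The lipoprotein receptor gene Vldlr rose by 4.55 (SE 0.14) and the fatty acid transporter gene Cd36 by 1.72 (SE 0.19), while Scarb1, which encodes the high-density lipoprotein receptor, fell by 0.86 (SE 0.12). At replating Olr1, the oxidised-lipoprotein receptor gene, rose by 3.87 (SE 0.17) from background and Vldlr fell by 2.14 (SE 0.14). Cd36 was the gene of this list that rose most in D48, by 3.57 log2 (SE 0.19), again from background. In the lysosome and esterification list 7 of 10 were higher in G0 and 1 lower, with a median of 0.72 (6 and 1 after quantile normalisation, median 0.70). With signal in both groups 7 of 9 were higher and 1 lower. Npc1, which moves cholesterol out of lysosomes, rose by 2.06 (SE 0.17), and Stard4, a cytosolic sterol carrier, fell by 2.99 (SE 0.13).

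Lipid droplet genes other than Plin2 were higher in G0 for 8 of 12 tested and lower for 1, and their median change was 0.61 log2. The counts were 6 and 1 after quantile normalisation, and the median became 0.35. Among the 10 with signal in both groups 6 were higher and 1 lower. The droplet coat gene Plin4 rose by 3.85 (SE 0.09) from background (1.08 in MB), and Hilpda, an inhibitor of adipose triglyceride lipase, by 3.01 (SE 0.18). G0s2, another inhibitor of the same lipase, fell by 2.21 (SE 0.17). Hilpda fell at replating by 3.12 (SE 0.18) to 4.05 ± 0.25 log2 (mean ± SD, n = 3) on the deposited scale, where MB had 4.16 ± 0.36. After quantile normalisation its changes were 2.99 from MB to G0 and -2.5 from G0 to R2. Triglyceride synthesis and fatty acid binding genes went both ways, 6 of 14 higher and 4 lower (median 0.11), or 6 and 5 after quantile normalisation, where the median turned to -0.03. All 14 had signal in both groups, and they were led by the fatty acid binding protein genes Fabp3 (2.20, SE 0.20) and Fabp5 (-3.12, SE 0.16). Of 6 further genes around lipoprotein lipase, 5 were higher in G0 and 1 lower (the same counts after quantile normalisation, median 0.94 and 0.75), and 4 of the 4 with signal in both groups were higher. Among the higher were Sdc1 (1.96, SE 0.11), a heparan sulphate proteoglycan, and Lmf1 (1.01, SE 0.23), which matures the lipase. The endothelial lipase gene Lipg was lower (-1.16, SE 0.14), with no G0 array above the 40th percentile.

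Of 18 further adipogenic transcription factors, 14 were higher in G0 and 2 lower, and the median was 1.07 log2 (14 and 2 after quantile normalisation, median 1.0). Of 16 with signal in both groups 12 were higher and 2 lower, with a median of 0.84. Cebpd, the partner of Cebpb in the early phase, rose by 3.06 (SE 0.20), Ppargc1a by 2.74 (SE 0.24) from background (1.43 in MB) and Klf4 by 2.74 (SE 0.14). At replating Klf5 rose by 1.36 (SE 0.14) and Ppargc1a fell by 2.03 (SE 0.24). PPAR targets of fatty acid oxidation numbered 6 higher and 1 lower among 12 tested, and their median was 0.28 (5 and 1 after quantile normalisation, median 0.16). With signal in both groups 5 of 11 were higher and 1 lower. Fgf21, a secreted factor, rose by 2.54 (SE 0.38) in G0 and by 4.87 (SE 0.38) in D48, and Cpt2, of the carnitine shuttle, fell by 3.15 (SE 0.17) at replating. The replating changes of Ch25h, Olr1, Vldlr, Hilpda, Klf5, Ppargc1a and Cpt2 kept their direction and stayed past the threshold after quantile normalisation.

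**Figure D4:**
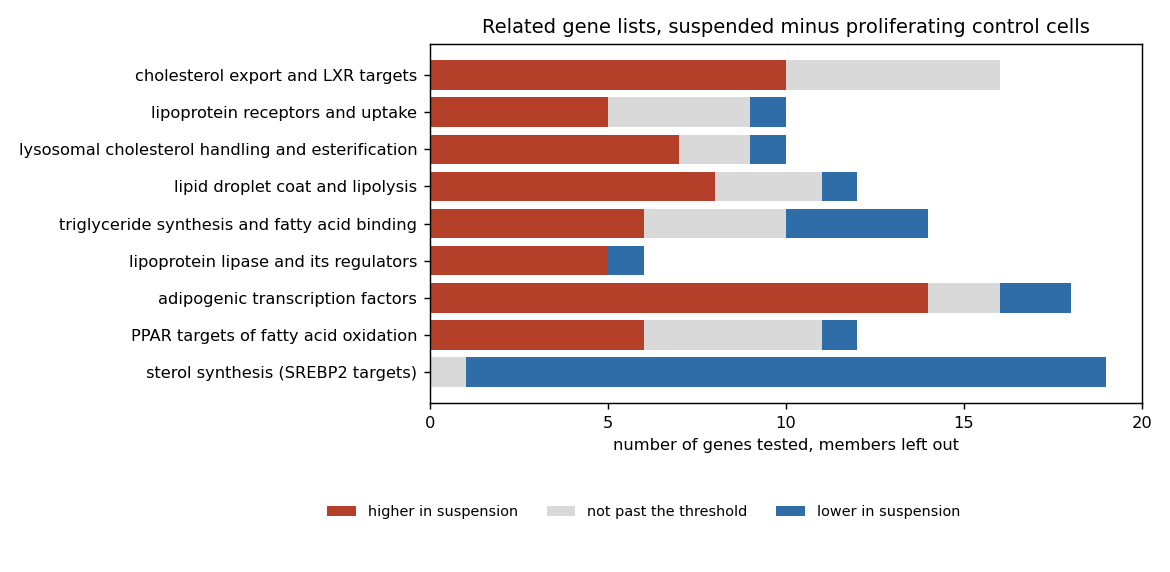
Number of genes tested in each of 9 related lists (x axis, members left out) that were higher, lower or not past the threshold in suspended against proliferating control cells. The sterol synthesis bar holds 18 lower genes of 19, and the export bar holds 10 higher genes of 16 and 0 lower.

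The 9 lists held 115 different genes tested besides the members. With IFT88 siRNA 4 of the 115 passed in G0 without the block, 2 higher and 2 lower, where 5.20% of all genes passed, and 4 passed in R2, 3 higher and 1 lower, where 2.41% did. With the block 7 were higher and 11 lower in G0 and 10 higher and 6 lower in R2, against 13.6% and 11.1% of all genes. In G0 the adipogenic regulator gene Zfp423 rose by 1.14 log2 (SE 0.13, adjusted p = 3.51e-06), Cd36 by 0.69 (SE 0.19, adjusted p = 0.0286, 0.0592 after quantile normalisation), Plin3, another droplet coat gene, fell by 0.43 (SE 0.11, adjusted p = 0.028) and the sterol desaturase gene Sc5d by 0.73 (SE 0.17, adjusted p = 0.0128). In R2 Zfp423 rose by 0.69 (SE 0.13), Cebpd by 0.83 (SE 0.20, adjusted p = 0.029) and the desaturase gene Scd2 by 0.76 (SE 0.15, adjusted p = 0.00546), and Plin3 fell by 0.56 (SE 0.11, adjusted p = 0.00808). In MB and in D48, 0 of the 115 passed limma's test without the block, where 0.361% and 0.14% of all genes did, and 3 and 2 passed with it, where 1.93% and 1.04% did. Plin3, which like Plin2 coats droplets in most cells, passed in G0 and in R2 without the block, while Plin2 with -0.47 and -0.46 did not.

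The genes whose 8 group means, after quantile normalisation, were most like those of Apoe were Car6 and Car9, which encode carbonic anhydrases, and Apoc1, each with Pearson r = 0.999 over 8 group means. Those most like Abca1 were Ptprm, Aox1 and Sfrp4, each with r = 0.998. The correlations are descriptions over 5146 genes whose means spanned at least 1 log2, and the points share the scale of their state. Control means of Car9 were 1.22 log2 in MB, 8.95 in G0, 8.17 in R2 and 1.26 in D48, and those of Sfrp4, a secreted Wnt antagonist gene, were 1.91, 7.80, 6.49 and 2.31.

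Macrophages and fat cells express many of these members strongly, so their markers were read on the same arrays, where fewer cells of a type and less RNA per cell cannot be told apart. Of 17 macrophage markers 6 passed the filter, and 4 of these 6 were higher in control G0 than in MB, where 41.9% of all genes were. The 4 were Cd14 (3.80 log2), Cd53 (3.32), Cd68 (1.73) and Csf1r (1.48), while Fcer1g and Laptm5 did not pass. Cd14 and Cd53 were above the level of the filter on every control MB array. Cd68 and Csf1r had control MB means (1.55 and 2.07) below it (2.24 to 2.26) and passed the filter through other states. Their rise was favoured in advance, so the count of 4 cannot be weighed against the 41.9%. The log2 of the signal summed over all 17 was 6.07 to 6.25 in control MB, 8.57 to 8.68 in control G0, 7.41 to 7.63 in control R2 and 5.88 to 5.90 in control D48. With IFT88 siRNA it was 5.92 to 6.09, 7.60 to 7.71, 6.67 to 6.92 and 5.91 to 5.93. Most of the sum in control G0 came from Cd14, whose mean was 8.01 log2 there and 4.21 in control MB. The 11 markers below the filter summed to 4.72 to 4.83 in control MB and 4.73 to 4.88 in control G0. Of the 6 tested, 2 were lower with IFT88 siRNA in G0, Cd14 (-1.54) and Cd68 (-1.32), and 0 higher. Over all genes 5.20% passed there in either direction. Csf1r (-0.5), Cd53 (-0.26), Fcer1g (0.1) and Laptm5 (0.02) did not pass. The Apoe value was negative there and that of Abca1 positive, and neither passed without the block. The 11 below the filter were Ptprc, Itgam, Adgre1, Lyz2, Aif1, Mrc1, Tyrobp, Spi1, C1qa, C1qb and C1qc. Ptprc read 1.08 in control MB and 1.12 in control G0, and Adgre1 1.58 and 1.67.

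Of 8 adipocyte markers 6 were measured and 2 passed the filter, Retn and Lipe, both higher in control G0 than in MB (Retn 5.15 against 2.19 log2, Lipe 2.86 against 2.12). Their control MB means lay below the level of the filter on those arrays (2.24 to 2.26), so they passed it through other states. A rise was favoured in advance, and the count cannot be weighed against the 41.9% of all genes tested that were higher. Adipoq, Lep, Fabp4 and Cidec were below the filter, with Adipoq at 1.0 in control MB and 1.27 in control G0, and these 4 summed to 2.98 to 3.04 log2 in control MB and 3.38 to 3.76 in control G0, where Fabp4 was at 2.26 against 0.88. The signal summed over all 6 measured markers, in G0 mostly that of Retn, was 4.08 to 4.10 log2 in control MB, 5.53 to 5.96 in control G0, 5.07 to 5.41 in control R2 and 3.90 to 4.08 in control D48. In IFT88KD cells it was 4.03 to 4.09, 4.95 to 5.73, 4.81 to 5.24 and 3.92 to 4.03. Of 6 fibroblast markers 5 were measured and 4 tested, and all 4 were higher in control G0 than in MB. These were Dcn by 7.65 log2 (9.78 against 2.12), Pdgfra by 3.80, Pi16 by 2.73 and Lum by 2.19. Only Pdgfra was above the level of the filter on every control MB array. The control MB means of Dcn, Pi16 and Lum (2.12, 1.87 and 0.95) lay below that level (2.24 to 2.26). They passed the filter through other states, so the count of 4 cannot be weighed against the 41.9% of all genes. The signal summed over the 5 was 5.27 to 5.65 in control MB, 10.28 to 10.65 in control G0, 9.17 to 9.50 in control R2 and 7.20 to 8.71 in control D48. With IFT88 siRNA it was 5.23 to 5.65, 9.88 to 9.97, 8.86 to 9.04 and 7.51 to 8.34. The part of these marker genes in the members' values was not tested.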

How the data were processed

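Expression was measured on 24 Affymetrix arrays, and the authors deposited log2 values of 22690 probe sets made with GCOS, Affymetrix Expression Console and affy, per the submitters' processing notes. Normalisation method, versions and genome build are not given in the sources used here. Probe sets assigned to 1 gene (20380) covered 12393 genes, with the brightest probe set on average standing for a gene (x_at types only where no other existed). Genes whose signal exceeded an array's 40th percentile at least 3 times were tested, 8597 in all and 8 of the 10 members. All arrays were fitted with limma 3.58.1 in R 4.3.3, with a coefficient per group, 10 contrasts and Benjamini-Hochberg adjustment over all genes tested (threshold 0.05). SE is limma's standard error.

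The members and lists were chosen with earlier results of these data known. Named were all members, up to 3 rises and 3 falls per list, and the 3 genes most like Apoe and Abca1. Other probe sets of a member were adjusted over 15060 probe sets. Deviations of arrays with equal number correlated at 0.252 to 0.708 between siRNAs within a state, against 0.134 at most for unequal numbers, so a block was set for each number in each state (12 blocks). For changes of state the block was the number itself, with correlations of 0.155 to 0.421 (R2 and G0), 0.164 to 0.284 (D48 and MB) and -0.0319 to 0.0673 (G0 and MB, not paired). The program was tested on simulated data, and Python 3.11.15 with matplotlib 3.10.9 drew the plots. Promoters came from RefSeq (GRCm38.p6). No raw intensities were analysed here. Alternatives were quantile normalisation, median centring, other filters, probe set averaging, each probe set on its own, a variance trend, array weights, the compared arrays alone and leaving out each array.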

Additional observations from a re-analysis of the deposited data

How the results depend on the processing

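Over 80 values of members and 1414 alternative values, 1308 kept their direction and their side of the threshold (for untested values of Apoe and Abca1, moved by at most the standard error), and 63 more changed sign while past the threshold under neither setting. The count of members past the threshold for IFT88KD minus control rose from 0 to 1 in MB with array weights and with the replicate block, from 1 to 2 in G0 with array weights and with arrays of the compared groups only and to 4 with the replicate block, and from 0 to 2 in R2 with array weights and to 4 with the replicate block. The count for the difference of effects between G0 and MB rose from 0 to 2 with the replicate block. The block changed no other call of a member. Leaving out 1 array gave counts of 0 to 1 in MB, where Lpl passed without IFT88KD replicate 2 or control replicate 3, of 0 to 0 in G0, where Angptl4 was lost each time, and of 0 to 1 in R2, where Plin2 passed without IFT88KD replicate 1 (-0.62, adjusted p = 0.0448). Leaving out Apoe and Abca1, below the 40th percentile in both groups, took the count for control D48 minus MB from 5 of 8 to 4 of 6, an alternative chosen after seeing the data. Centring arrays on their median took the count for control R2 minus G0 from 6 to 2, turned Plin2 to 0.0012 (adjusted p = 0.994) and left Apoe at -0.03, Cebpa at -0.04, Pparg at -0.24 and Lpl at -0.41. These changes follow from the lower scale of the R2 arrays, whose normalisation is unknown here. Levels below the 40th percentile limit what can be said of Abcg1 and Nr1h3 in all states, of Apoe and Abca1 in attached cells and of Pparg in D48.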
